A study of Mus musculus with 6 samples.

Results

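The miRNA content of mouse primary osteoblasts (OB) was set against that of mouse primary bone marrow cells (BM). Each miRBase precursor entry was compared as a share of the counts of its own library. An entry was kept when it had 50 or more counts in at least one of the 2 libraries, which left 372 of the 1006 entries in the table, and the other 634 were below that limit in both. The kept entries held 99.95% of the OB counts and 99.94% of the BM counts. Among them, 223 reached the limit in both libraries, 73 in OB only and 76 in BM only. At the limit itself, the kept entries let-7k, mir-669p-1 and mir-6928 had 50 counts in their higher library, and mir-669p-2, with 49, was the nearest entry left out.

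The series holds 6 small RNA libraries, of which 1 is OB, 1 is BM, and 2 each are vesicles from unstimulated C2C12 myoblasts (Myo-EVs) and from C2C12 myoblasts under fluid flow shear stress (FFSS-Myo-EVs). Both cell libraries are labelled with stress as control, with a mixed strain background, 81.25% C57BL/6J and 18.75% 129/SvJ, and with an age of 8 to 10 weeks. The methods differ from that label for OB, since they describe cells digested from the pooled calvariae of neonatal male mice, used after passage in culture, whereas BM came from the tibiae of an adult male mouse. Age, culture and bone of origin therefore cannot be told apart from cell type. Whether the BM cells that were sequenced had been cultured is not given in the sources used here. OB are the cells that lay down bone matrix, whereas BM is a mixture of blood-forming cells, maturing leukocytes and red cells, and stromal cells. As there is 1 library a side, the values describe these 2 libraries, without a replicate check and without a test. In such mixtures, fewer cells of a type and less RNA per cell cannot be told apart.

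A miRNA is cut from a hairpin precursor and guides the silencing machinery to messenger RNAs, mainly through its seed, the bases 2 to 8 counted from the 5′ end. Cells of different lineages carry different sets of miRNAs, and the blood, mesenchymal and muscle lineages each have well-known ones. Many miRNA genes lie in clusters that are transcribed as 1 long RNA. The imprinted Dlk1-Dio3 locus, whose noncoding transcripts come from the maternal chromosome, is among the largest such groups in the mouse. The table lists precursors, so the 5p and 3p forms cut from both arms of a hairpin are counted together.

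The following mature forms are shown because their entries carry the largest differences or mark a lineage. They are RefSeq sequences on GRCm38.p6, written 5′ to 3′ with the seed in capitals. Of the imprinted locus on chromosome 12, the forms are miR-127-3p from the entry with the highest OB level (chr12:109592888-109592909, plus strand), miR-541-5p from the entry with the largest ratio (chr12:109742422-109742446, plus strand), miR-379-5p and miR-434-3p.
miR-127-3p: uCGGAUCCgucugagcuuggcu
miR-541-5p: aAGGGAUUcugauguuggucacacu
miR-379-5p: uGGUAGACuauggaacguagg
miR-434-3p: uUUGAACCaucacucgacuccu

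The mesenchymal lineage is shown by both arms of mir-199a and by miR-214-3p (chr1:162223438-162223459, plus strand, in an exon of the noncoding gene Dnm3os).
miR-199a-5p: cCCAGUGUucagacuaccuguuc
miR-199a-3p: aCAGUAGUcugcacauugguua
miR-214-3p: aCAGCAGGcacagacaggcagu

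The blood lineages are shown by miR-223-3p (chrX:96242884-96242905, plus strand), miR-142a-3p (chr11:87756903-87756925, plus strand) and miR-451a (chr11:78073186-78073207, plus strand), and miR-338-3p (chr11:120014781-120014802, minus strand, in an intron of Aatk) is shown for its large ratio.
miR-223-3p: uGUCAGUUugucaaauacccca
miR-142a-3p: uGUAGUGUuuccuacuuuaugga
miR-451a: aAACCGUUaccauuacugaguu
miR-338-3p: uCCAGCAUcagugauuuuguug

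The last set holds members of single families that differ at 1 base outside the seed and whose entries had different ratios. Positions are counted from 1 at the 5′ end, with the base of the first-named form given first. miR-10a-5p (chr11:96317186-96317208, plus strand) and miR-10b-5p (chr2:74726074-74726096, plus strand) share the seed ACCCUGU and differ by U12A. miR-100-5p and miR-99a-5p differ by A16U, miR-30a-5p and miR-30e-5p by C13U, and let-7e-5p and let-7a-5p by G9U.
miR-10a-5p: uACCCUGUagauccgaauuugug
miR-10b-5p: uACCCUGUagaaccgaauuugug
miR-100-5p: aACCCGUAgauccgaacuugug
miR-99a-5p: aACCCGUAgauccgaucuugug
miR-30a-5p: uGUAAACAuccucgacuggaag
miR-30e-5p: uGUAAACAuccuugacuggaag
let-7e-5p: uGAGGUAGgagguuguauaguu
let-7a-5p: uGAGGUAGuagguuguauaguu

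Both libraries were deep, with 5181296 counts in OB and 6092460 in BM, so that 1 count stood for 0.193 counts per 1000000 counts of the library (CPM) in OB and 0.164 CPM in BM. A count of 0 was taken to allow up to 3 counts, which is 0.579 CPM in OB and 0.492 CPM in BM. Intervals given below are exact 95% intervals of the ratio of 2 counts, and because the reads carry no molecular identifiers they cover counting error only. mir-21a, a miRNA abundant in many cell types and raised in inflammation and growth, was the top entry of both libraries, at 21.6% of the OB counts and 44.9% of the BM counts. The 10 most abundant entries took 63.4% of OB and 73.2% of BM, and 6 of them were the same in both, namely mir-21a, mir-148a, let-7i, mir-27b, let-7f-1 and let-7f-2. The OB list further held mir-143, mir-199a-1, mir-199a-2 and mir-127, and the BM list held let-7g, mir-10a, mir-221 and mir-30d.

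Entries differed widely between OB and BM. The log2 ratio of the OB share over the BM share ran from -10.54 for mir-451a to 14.14 for mir-541, with a median of -0.51 and quartiles at -1.53 and 2.72. Entries with 0 counts in one library entered with a ratio taken against 3 counts. A ratio of 4-fold was taken as a size limit. By it, 109 entries (29.3% of the 372) were higher in OB and 71 (19.1%) were higher in BM, and 192 lay within 4-fold, 113 of them within 2-fold. The OB side reached further, with 82 entries at least 10-fold and 44 at least 100-fold higher, against 42 and 10 on the BM side. The whole interval lay beyond 4-fold for 99 of the OB-high and 58 of the BM-high entries. The OB-high entries held 37.0% of all OB counts and 1.76% of BM counts. The BM-high entries held a smaller part of their own library, 9.41% of BM counts against 0.779% of OB counts. Most of both libraries, 62.1% of OB and 88.8% of BM, was therefore in entries whose shares were within 4-fold. The rank correlation of levels over the 372 entries was 0.44 (Spearman's rho), and these points share their 2 libraries.

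**Figure D1:**
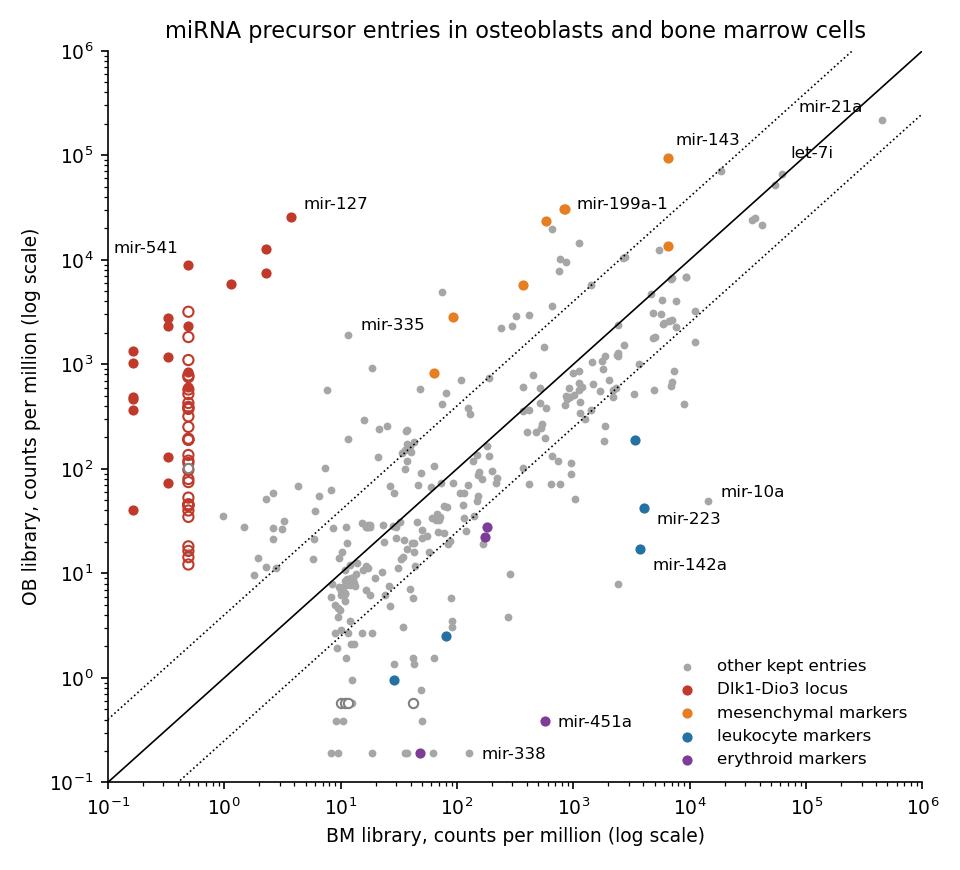
CPM of each of the 372 kept entries in BM (horizontal, log scale) and OB (vertical, log scale), with 1 library each. Open circles are entries with 0 counts in one library, drawn at 3 counts, the solid line marks equal shares and the dotted lines mark 4-fold. Entries of the Dlk1-Dio3 locus stand at the left edge, with OB levels of 12.2 to 25641 CPM, while mir-451a, mir-142a, mir-223 and mir-10a lie far below the lower dotted line.

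The vesicle libraries, each sequenced as a pair, give the only measure in the series of how far libraries of 1 kind lie apart. Among 242 entries with at least 50 counts in either Myo-EV library, the absolute log2 ratio had a median of 0.25 and a largest value of 1.56 (mir-32), and 0 (0%) were 4-fold apart. Among 242 such entries of the FFSS-Myo-EV pair, the median was 0.10, the largest value 0.91 (mir-378d), and again 0 (0%) were 4-fold apart. The same median between OB and BM was 1.95. Beyond the gap of 1.56, which no vesicle pair exceeded, lay 118 entries on the OB side and 92 on the BM side. The vesicle pairs come from a single cell line and may be technical repeats, and how far separate OB or BM preparations differ is not known from them.

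**Figure D2:**
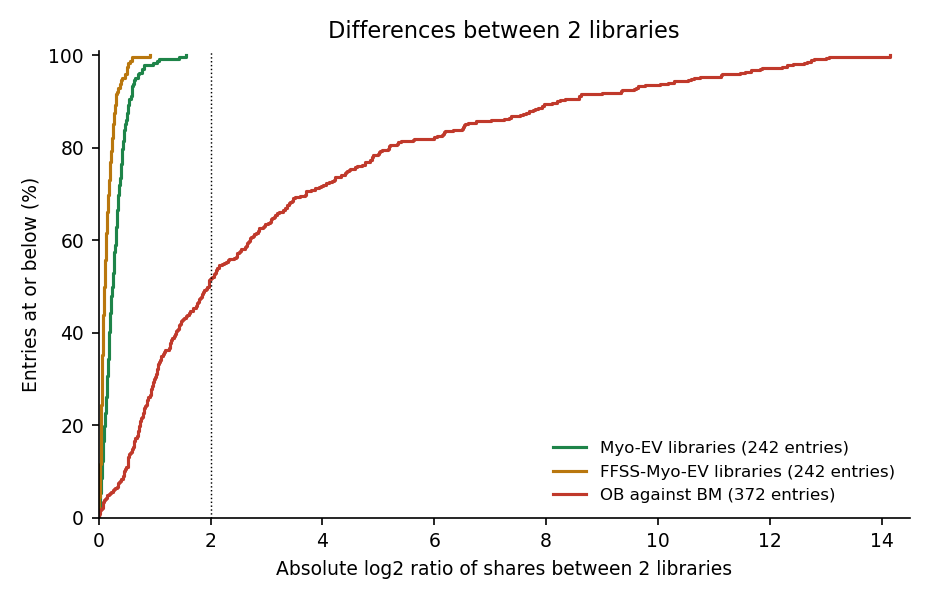
Cumulative share of entries (percent, vertical) at or below an absolute log2 ratio between 2 libraries (horizontal), for the Myo-EV pair and the FFSS-Myo-EV pair (242 entries each) and for OB against BM (372 entries). The dotted line marks 4-fold. Both vesicle curves end before it, at 1.56 and 0.91, and 192 of the 372 entries of OB against BM lie to its left.

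The imprinted Dlk1-Dio3 locus, whose miRNAs are known from embryonic, placental, neural and stem cell studies, made up 1 large block of entries on the OB side. The span from mir-770 to mir-3072 is 184 kb long (chr12:109563692-109747960 in GENCODE M21 on GRCm38), and it holds 55 entries of the table, 52 of them kept. Each of these 52 was at least 4-fold higher in OB. None of them reached the count limit in BM, where mir-127 was highest with 23 counts. All 52 were thus kept through their OB counts alone. Apart from mir-127, none had more than 14 counts in BM. At such counts, reaching the limit in OB already gave a ratio above 4-fold. The calls of all but mir-127 thus followed from how entries were kept. The 52 were 47.7% of the 109 OB-high entries. Together, the 55 entries of the span had 450127 counts in OB, or 8.69% of that library. They had 86 counts in BM, or 14.1 CPM, a ratio of 6154 (interval 4983 to 7694). Outside the locus, 57 of 320 kept entries (17.8%) were 4-fold higher in OB, and the median log2 ratio was -0.76.

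Of the 52 entries, 49 lie on the plus strand like the maternal noncoding transcripts of the locus. mir-770 is in an exon of Meg3, mir-341, mir-1188 and mir-370 in introns of Rian, and the entries from mir-382 to mir-3072 in Mirg, while most others have no annotated host. The other 3, mir-3071, mir-3544 and mir-299b, lie on the minus strand opposite mir-136, mir-337 and mir-299a. mir-3071, in an exon of the protein-coding gene Rtl1, had 3913 counts in OB, more than the 1993 of mir-136, and whether the matching kept the strands apart is not stated.

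Levels within the locus were uneven in OB and near 0 throughout in BM. The OB level ranged from 12.2 CPM for mir-299b to 25641 for mir-127, with a median of 372, and mir-127, mir-379 and mir-541 held 54.2% of the counts of the locus. In BM, 33 of the 52 entries had 0 counts, 15 had 1 to 3, and 4 had more. Those 4 were mir-127 with 23 counts, mir-379 and mir-434 with 14 each, and mir-411 with 7. They were also 4 of the 5 most abundant entries of the locus in OB. In the 4 vesicle libraries the locus summed to between 5.57 and 17.7 CPM, so OB stood apart from all 5 other libraries.

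mir-127, which lies within the Rtl1 antisense transcript and is complementary to Rtl1, had 132854 counts in OB and 23 in BM, a ratio of 6792 (interval 4526 to 10715). mir-379, the first entry of the large downstream cluster, had 65249 and 14 counts, a ratio of 5480 (interval 3266 to 10025). mir-541 had 45987 and 3 counts, and its ratio of 18025 has a wide interval, 6167 to 87407, because of the 3 counts. These entries were thus among the most abundant miRNAs of OB while close to the limit of detection in BM. mir-434, which lies beside mir-127, had 38624 counts in OB against 14 in BM, and mir-411 had 30125 against 7. mir-382 had 16499 counts in OB and 0 in BM. Taken against 3 counts it was 6467-fold higher in OB, with a lower interval limit of 5259. mir-300, with 9454 against 0, was 3706-fold higher in the same way, with a lower limit of 3013. mir-409 (14436 and 2 counts), mir-134 (12107 and 2), mir-381 (12074 and 3), mir-337 (6999 and 1), mir-494 (6137 and 2) and mir-299a (5282 and 1) completed the 12 largest OB ratios among entries of 100 CPM or more, all of which lay in this locus.

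**Figure D3:**
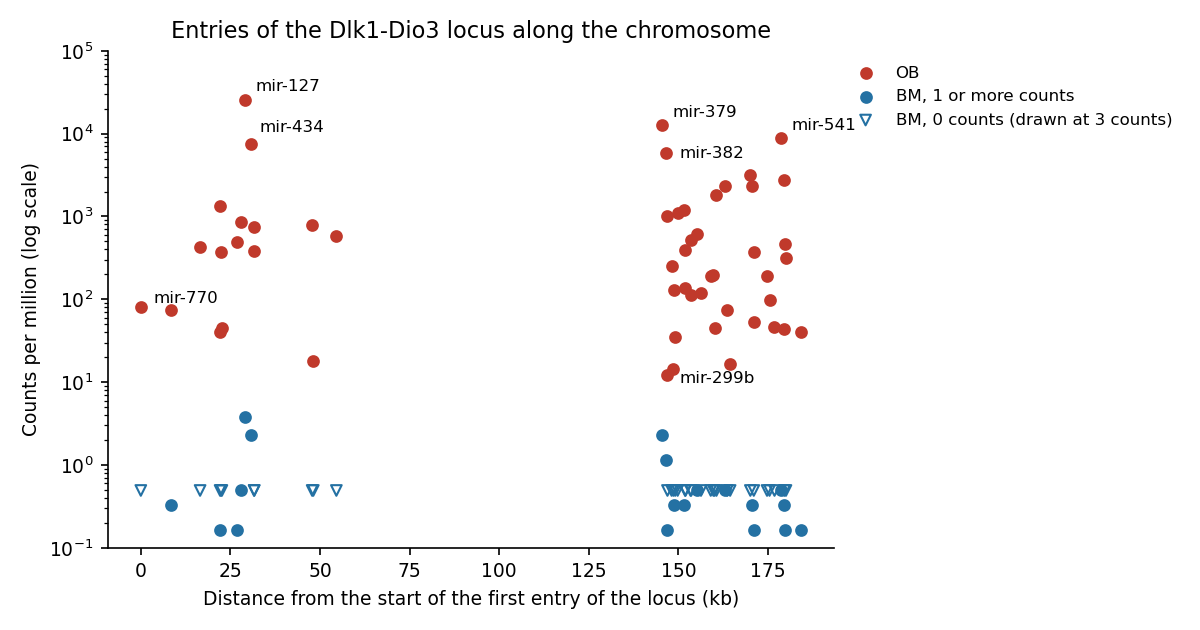
CPM (log scale) of the 55 entries of the Dlk1-Dio3 locus that are in the table, restricted to the 52 kept, against their distance in kb from the start of mir-770, in OB (red) and BM (blue, with open triangles for 0 counts drawn at 3 counts). The entries lie in an upstream group with mir-127 and mir-434 and a downstream group that opens with mir-379, and OB levels run from 18.1 to 25641 CPM in the upstream and from 12.2 to 12593 CPM in the downstream group, above BM values of at most 3.78.

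Among the kept entries, the locus accounted for nearly every one with 0 counts in BM. Such entries were kept through their OB counts alone, and BM also lacked entries that fell below the limit in both libraries. Of 34 kept entries with 0 counts in BM, 33 lay in it, and the other one was mir-483 in an intron of Igf2, a growth factor gene that is itself imprinted. mir-483 had 530 counts in OB. Its ratio, taken as for the other entries with 0 counts in BM, was 208, with a lower interval limit of 168. In the other direction, mir-1668, mir-3065, mir-363 and mir-3969 had 0 counts in OB. mir-335, in an intron of the imprinted gene Mest, had 9990 counts in OB and 71 in BM, a ratio of 165 (interval 131 to 212).

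The markers of the mesenchymal lineage were higher in OB as well. All 8 kept entries of that list were above equal shares, 7 of them at least 4-fold, against 29.3% of the 372 entries. Their median log2 ratio was 4.44, against -0.51 over the 372 entries. They made up 20.2% of OB counts and 1.57% of BM counts, and 0 of the 8 were at 0 counts in BM. mir-143 and mir-145a, neighbours in 1 cluster that is typical of smooth muscle and fibroblasts, were at 94188 and 5796 CPM in OB and at 6455 and 369 in BM, ratios of 14.6 and 15.7. mir-199a-2 and mir-214, which are both cut from the Dnm3os transcript, were 36.6-fold and 30.1-fold higher in OB. The other mir-199 genes had like ratios, 36.7 for mir-199a-1 and 40.1 for mir-199b, but reads from mir-199a-1 and mir-199a-2 give the same mature forms and cannot be assigned to 1 of them. The cartilage miRNAs on the list differed between themselves. mir-455, in an intron of the collagen gene Col27a1, was 13.0-fold higher in OB, whereas mir-140, with 70172 counts in OB and 39437 in BM, was only 2.09-fold higher.

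Known regulators of osteoblasts and cartilage lay on both sides. Of the 8 kept entries of a list of 13, 6 were 4-fold higher in OB and 1 was 4-fold higher in BM. Over the 372 entries, these shares were 29.3% and 19.1%. The 8 include mir-140 and mir-455, which are also on the mesenchymal list. mir-335 and mir-31 had the highest ratios, 165 and 73.5, and mir-31 is known to act on osteoblast transcription factors. mir-204, in an intron of Trpm3 and known to act on Runx2, the master factor of osteoblast formation, had 184 counts in OB and 6 in BM. mir-218-1 and mir-218-2, in introns of Slit2 and Slit3, were 4.28-fold and 4.63-fold higher in OB, with lower interval limits of 3.68 and 4.00, and both fell below 4-fold when mir-21a was left out of the totals. mir-338, in an intron of Aatk, went the other way with 1 count in OB and 771 in BM, a ratio of 656 with an interval of 117 to 25932. mir-2861 and mir-3960, which were described in osteoblasts, had 0 counts in both libraries, which was taken to allow up to 0.579 CPM in OB and 0.492 in BM.

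The blood cell markers showed the reverse. All 5 leukocyte entries were at least 4-fold higher in BM, with a median log2 ratio of -5.01. All 4 erythroid entries were too, with a median of -5.46. Over the 372 entries, 19.1% were 4-fold higher in BM. Among these markers, mir-150, mir-511, mir-451a and mir-144 were kept through their BM counts alone. For all of these but mir-511, reaching the limit in BM already gave a ratio above 4-fold. The leukocyte entries summed to 11287 CPM in BM and 254 in OB, and 0 of them were at 0 counts in OB. mir-142a, found in nearly all blood cells, had 22827 counts in BM and 89 in OB, a ratio of 218 (interval 177 to 272). mir-223, the miRNA of granulocytes and monocytes, had 24448 and 221 counts, a ratio of 94.1 (interval 82.4 to 108). mir-342, in an intron of Evl, was at 3418 CPM in BM and 191 in OB, a ratio of 17.9. The lymphocyte miRNA mir-150 and the macrophage miRNA mir-511, which lies in an intron of the mannose receptor gene Mrc1, were low in BM as well, with 174 and 492 counts against 5 and 13 in OB.

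mir-451a and mir-144 are cotranscribed under the red cell factor GATA1. mir-451a had 3489 counts in BM and 2 in OB, a ratio of 1484 (interval 410 to 12255), and mir-144 had 292 and 1. The pair mir-486a and mir-486b at the Ank1 gene, which is used in red cells and in muscle, differed less, with ratios of 7.78 and 6.55, of which that of mir-486b was below 4-fold with TMM factors. These 2 entries overlap on opposite strands, so their counts cannot be told apart and they are not separate results. Of the erythroid markers, the defining mir-451a and mir-144 were thus close to 0 in OB, and the leukocyte markers were low there but counted. mir-126a in Egfl7, a miRNA of endothelium, platelets and blood stem cells, had 6302 counts in BM and 267 in OB, a ratio of 20.1.

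Markers of lineages that neither sample was labelled with were scarce. Of 8 entries for liver, neuron and islet, 0 were kept. Of 9 muscle entries 4 were kept, with 2 on each side, of which mir-1a-2 fell below 4-fold with median-of-ratios and TMM factors. mir-206 had 166 counts in OB and 20 in BM, mir-1b had 671 and 128, and mir-1a-1 had 5 and 77. mir-1b overlaps mir-1a-2 (11 and 79 counts) on the opposite strand, so the counts of these partners cannot be told apart. Of the 5 kept epithelial entries, mir-200a, mir-200b, mir-200c and mir-429 were higher in BM, at 9.19 to 91.3 CPM against 0.386 to 3.47 in OB, and mir-203 was 3.63-fold higher in OB. Which cells of the BM sample held the mir-200 entries was not tested.

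The miRNAs of the Hox gene clusters, which encode the factors that set position along the body axis, gave the widest contrast within a family. mir-10a, beside Hoxb4, had 87807 counts in BM and 254 in OB, a ratio of 294 (interval 260 to 334), and it was among the 10 most abundant entries of BM. mir-10b, in the Hoxd cluster, had 493 counts in BM and 2781 in OB and was 6.63-fold higher in OB (interval 6.03 to 7.31). The forms miR-10a-5p and miR-10b-5p share their seed and differ by U12A, so of this pair with 1 seed, OB held mainly mir-10b and BM mainly mir-10a. The other kept entries were all higher in BM. mir-196a-1 and mir-196a-2 had 262 and 300 counts in BM against 7 and 4 in OB, mir-196b in Hoxa9 had 378 against 1, and mir-615 in Hoxc5 had 210 against 16.

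Other families also parted. In the mir-30 family, which shares 1 seed, mir-30a was 5.52-fold higher in OB, mir-30b was 7.26-fold and mir-30c-1 4.46-fold higher in BM, and mir-30e, which differs from mir-30a in its 5p form by C13U, was 1.55-fold higher in BM but changed sign with TMM factors. mir-30a fell below 4-fold when mir-21a was left out of the totals, and mir-30c-1 with the authors' constants, median-of-ratios and TMM factors. In the mir-34 family of p53 targets, mir-34b and mir-34c, which are neighbours in 1 transcript, had 4768 and 25633 counts in OB against 113 and 457 in BM, ratios of 49.6 and 66.0. mir-34a, a separate gene, was nearly equal at 594 and 514 CPM. In the mir-148 and mir-152 family, mir-152 in an intron of Copz2 was 13.0-fold and mir-148a 3.84-fold higher in OB, and mir-148b was 1.55-fold higher in BM, a direction that turned with TMM factors.

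**Figure D4:**
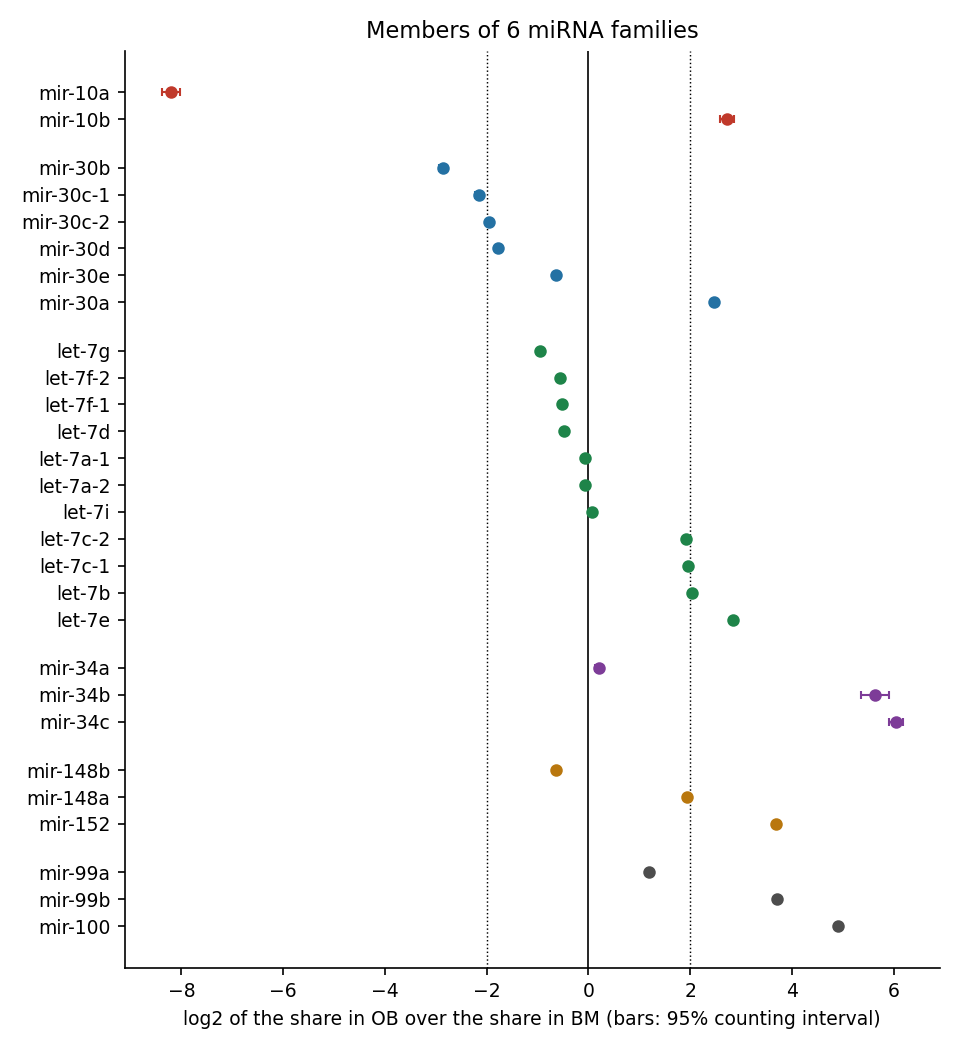
log2 ratio of the OB share over the BM share for members of 6 families, with bars for the 95% counting interval, which are smaller than the point for most entries. Dotted lines mark 4-fold. mir-10a and mir-10b lie on opposite sides, as do mir-30a and mir-30b, and the mir-34 and mir-148/152 families each spread over more than 4 log2 units.

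The let-7 family, a large group that restrains growth and marks differentiated cells, was the most abundant family after mir-21a, at 18.4% of OB and 20.3% of BM. Its 12 entries had a median log2 ratio of -0.07, which turned positive under 4 of 5 other scalings, by up to 0.68 with TMM factors. Its members were not alike. let-7e was 7.16-fold and let-7b 4.10-fold higher in OB, the latter below 4-fold without mir-21a in the totals, let-7c-1 was 3.90-fold higher, let-7i and let-7a-1 were within 1.06-fold of equal, and let-7g was 1.92-fold higher in BM. let-7e lies beside mir-99b and mir-125a in an intron of Spaca6, and these 3 neighbours were 7.16-fold, 13.1-fold and 9.38-fold higher in OB. The mir-99, mir-100 and mir-125 family as a whole was higher in OB in all 6 entries and at least 4-fold in 5, with a median log2 ratio of 3.41. mir-100 led with 102946 counts in OB and 4023 in BM, a ratio of 30.1, and mir-99a, whose 5p form differs from it by A16U, was 2.29-fold higher.

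Entries of 1 transcript mostly lay on the same side. The X-linked group from mir-322 to mir-450b was higher in OB in all 7 entries, from 3.23-fold for mir-450b to 9.08-fold for mir-322, and mir-503, mir-450a-1 and mir-450a-2 fell below 4-fold when mir-21a was left out of the totals. mir-183, mir-96 and mir-182, a cluster known from sensory cells and many tumours, were 16.7-fold, 18.7-fold and 18.5-fold higher in OB at low levels, with 997, 143 and 1514 OB counts. On the BM side, the 5 entries in introns of Clcn5 on the X chromosome (mir-188, mir-362, mir-500, mir-501 and mir-532) were 4.98-fold to 97.0-fold higher, and mir-532 was the most abundant of them at 3302 CPM. The ratio of 97.0, for mir-188, rests on 1 count in OB and 114 in BM (interval 17.1 to 3862.5). The others reached at most 8.45-fold, for mir-501. With TMM factors mir-362 and mir-532 fell below 4-fold, and mir-362 did so with median-of-ratios factors too. mir-221 and mir-222, which act on the receptor Kit and on cell cycle inhibitors, were 6.79-fold and 10.3-fold higher in BM, with 67789 and 42581 counts. mir-146a and mir-146b, which damp NF-kB signalling, were 21.1-fold and 8.76-fold higher in BM, while mir-155, the other well-known NF-kB target, was only 1.75-fold higher, at 152 CPM against 87.0.

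**Figure D5:**
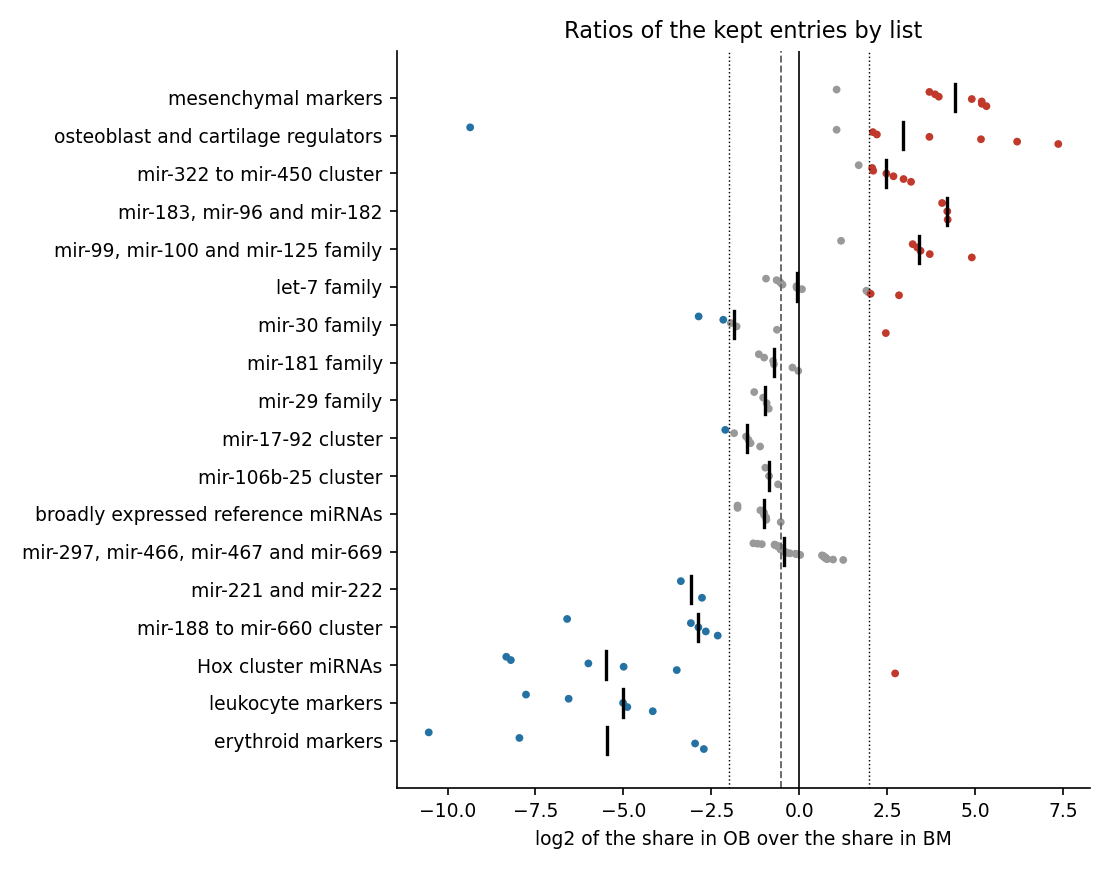
log2 ratio of the OB share over the BM share for each kept entry (points) of 18 lists, with the median of each list as a vertical bar. Red and blue points are at least 4-fold higher in OB and BM, dotted lines mark 4-fold and the dashed line marks the median of all 372 entries, -0.51. Medians run from 4.44 for mesenchymal markers to -5.49 for the Hox cluster list, and those of the let-7, mir-181 and mir-297 to mir-669 lists change sign under another scaling.

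Several groups lay mostly within 4-fold. The 8 broadly expressed entries that are often used as references, such as mir-103-1, mir-191 and mir-423, were all higher in BM, with log2 ratios from -1.75 to -0.52, and among them mir-107 alone changed sign with median-of-ratios and TMM factors. The mir-17-92 cluster, a driver of proliferation in blood cells, was 2.16-fold to 4.29-fold higher in BM in its 6 entries, of which mir-19a passed 4-fold, but only with the plain totals and with totals without mir-21a. The mir-29 family, which acts on collagen messengers, was 1.82-fold to 2.42-fold higher in BM. The mir-181 family had ratios of 1.02-fold to 2.21-fold towards BM in its 6 entries, of which the interval of mir-181b-1 included equal shares, and its median of -0.73 became 0.02 with TMM factors. The 41 kept entries of the rodent mir-297, mir-466, mir-467 and mir-669 families, most of which lie in an intron of Sfmbt2, fell on both sides, 14 above and 27 below equal shares. Their median of -0.44 turned positive with TMM and median-of-ratios factors, and 0 of them were 4-fold apart.

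The remaining lists were small or mixed. The mir-106a-363 cluster on the X chromosome, a relative of mir-17-92, was higher in BM in its 5 kept entries, 3 of them at least 4-fold (mir-106a not with median-of-ratios or TMM factors), with 71 counts of mir-363 in BM and 0 in OB. mir-15a and mir-16-1 were 4.43-fold and 3.94-fold higher in BM, and mir-15b and mir-16-2 were 1.76-fold and 4.18-fold higher, and neither mir-15a nor mir-16-2 passed 4-fold with the authors' constants, median-of-ratios or TMM factors, nor mir-16-2 without the Dlk1-Dio3 locus in the totals. By contrast, their relatives mir-195a and mir-497a were 2.57-fold and 3.59-fold higher in OB. The 3 mir-26 entries were higher in BM by 1.36-fold to 2.53-fold, a direction that their median lost with median-of-ratios and TMM factors. In the mir-130 and mir-301 family, mir-130a was 7.69-fold higher in OB, and mir-130b was 1.95-fold higher in BM. Of 12 entries suspected of matching fragments of other RNAs, 7 were kept, and the 12 took 0.0396% of OB counts and 0.0919% of BM counts. The 3 of these that passed 4-fold were mir-3473b, mir-3473c and mir-3473e, all higher in BM, with 543, 254 and 226 counts against 30, 8 and 1.

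Abundant entries nearest to equal were looked for among those at 1000 CPM or more. Of 41 entries at that level in both libraries, the 6 closest to a ratio of 1 were mir-23b, mir-22, mir-27b, let-7a-2, let-7a-1 and let-7i, all within 1.06-fold. mir-23b and mir-27b are neighbours and were at 4719 and 51474 CPM in OB and 4619 and 53585 in BM. Equality of shares depends on the total used. Every log2 ratio shifts by the same amount under another scaling, by -0.51 when mir-21a is left out of the totals, 0.24 with the authors' constants, 0.62 with median-of-ratios factors and 0.75 with TMM factors.

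On the BM side, the 12 largest ratios among entries of 100 CPM or more were those of mir-451a, mir-338, mir-142b, mir-10a, mir-142a, mir-223, mir-139, mir-326, mir-146a, mir-126a, mir-342 and mir-340. mir-139 in an intron of Pde2a had 1669 counts in BM and 20 in OB, and mir-326 in an intron of Arrb1 had 1738 and 51. mir-340 in an intron of Rnf130 was 11.1-fold higher, at 6907 CPM against 625. By chromosome, 52 of the 58 kept entries placed on chromosome 12 were OB-high. These are the 52 of the Dlk1-Dio3 locus, which were kept through their OB counts alone. On chromosome 11, 13 of 31 were BM-high, and on the X chromosome 15 of 32. Over the 372 entries, 29.3% were OB-high and 19.1% BM-high. The X entries include neighbours already described, such as the Clcn5 group and mir-221 and mir-222, so they are not separate results.

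Some entries cannot be fully separated. There were 28 names with several kept copies, 74 entries in all, whose log2 ratios differed by a median of 0.14 within a name and by at most 1.10 (mir-1a). A further 12 pairs of kept entries overlap on opposite strands, those of the imprinted locus included. Among them, mir-142b (41 and 14666 counts in OB and BM) is the antisense partner of mir-142a, and mir-3074-1 (12675 and 36243) overlaps mir-24-1 (2585 and 5290), so the counts of such partners cannot be told apart.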

How the data were processed

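Total RNA (90 ng per library) was made into small RNA libraries with an adaptor-ligation kit and sequenced by the authors. In CLC Genomics Workbench, the authors grouped the reads by sequence and matched them to miRBase, giving the deposited counts per precursor entry, which are not normalized. The deposited normalized expression values are a signal that equals the count times 1 constant per library (0.552 for OB, 0.397 for BM). They were used only as an alternative scaling. The submitters' processing notes name the build mm10. The miRBase release, the mismatches allowed and the treatment of reads with several matches are not given in the sources used here.

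Counts were divided by the library total. Shares and ratios have exact 95% intervals (Clopper-Pearson and conditional binomial). A ratio against 0 counts was taken against 3 counts, and the exact lower limit of such a ratio is somewhat lower. Limits were 50 counts in either library and 4-fold. Named entries are the 10 most abundant per library, the 12 largest ratios each way at 100 counts per 1000000 or more, the 6 nearest to equal at 1000 or more in both, and list members. The members and lists were chosen with earlier results of these data known. Positions of 365 kept entries come from GENCODE M21 or RefSeq, and mature sequences from RefSeq. Python 3.11.15, pandas 2.3.3, scipy 1.17.1 and edgeR 4.0.16 (TMM only) in R 4.3.3 were used, and the ratio step was tested on simulated data. No test was run, with 1 library a side.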

Additional observations from a re-analysis of the deposited data

How the results depend on the processing

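The counts of 4-fold entries moved with the scaling, from 98 to 124 on the OB side and from 54 to 95 on the BM side. Without mir-21a in the totals they were 98 and 95, so that 50.8% of the 4-fold entries were OB-high. That share was 60.6% with the plain totals and 69.7% with TMM factors. The larger number on the OB side thus depends on the scaling. All 109 OB-high entries stayed at least 4-fold higher with the authors' constants, median-of-ratios factors, TMM factors and totals without the Dlk1-Dio3 locus (an alternative chosen after seeing the data), and 98 of them without mir-21a in the totals. Of the 71 BM-high entries, 65, 57, 54, 68 and 71 stayed, in the same order. The median log2 ratio was -1.01 without mir-21a, 0.12 with median-of-ratios factors and 0.25 with TMM factors, by the construction of those scalings. The OB-high and BM-high counts were 139 and 108 with no limit on counts, 127 and 132 at 2-fold, where BM had more, and 82 and 42 at 10-fold. No paired analysis was possible because OB and BM have 1 library each. Depth limits what can be said of entries at 1 to 3 counts, whose ratios span more than 10-fold in their intervals.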

Other observations

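Entries outside the lists were looked at after their values were seen. The mir-378 entries were higher in BM. Of these, mir-378a in an intron of Ppargc1b, a regulator of mitochondria, had 44520 counts in BM and 4456 in OB, a ratio of 8.50, and mir-378b, mir-378c and mir-378d had ratios of 5.71, 10.6 and 8.89, of which mir-378b fell below 4-fold with median-of-ratios and TMM factors. mir-128-1 and mir-128-2, which lie in introns of R3hdm1 and Arpp21, were 6.21-fold and 5.79-fold higher in BM, both below 4-fold with TMM factors and mir-128-2 also with median-of-ratios factors. mir-652 was 9.77-fold and mir-1198 10.7-fold higher in BM, both from introns of X-linked genes.

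On the OB side, the mir-193 and mir-365 genes, which lie in neighbouring pairs, gave ratios of 22.6 for mir-193b, 5.04 for mir-193a (below 4-fold without mir-21a in the totals) and 11.4 for mir-365-1, and mir-365-2 had 1324 counts in OB and 154 in BM. mir-224 and mir-452, in introns of Gabre, were 6.31-fold and 7.06-fold higher in OB. mir-298 and mir-296, neighbours on chromosome 2, were 12.1-fold and 6.38-fold higher in OB, with 3002 and 1232 OB counts. mir-708 in an intron of Tenm4 had 532 counts in OB and 45 in BM.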
